A study of Mus musculus with 6 samples.

Results

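Genes of the transforming growth factor beta (TGF-beta) superfamily were followed in MLO-Y4 cells, an osteocyte-like mouse cell line, after low-intensity pulsed ultrasound (LIPUS). The members were taken by gene symbol, with earlier results of these data known, as Tgfb1, Tgfb2, Tgfb3, Bmp1, Bmp2, Bmp4, Bmp6, Inhba, Inhbb and Gdf15, and all 10 were found once each among the 53797 genes of the deposited table. The table compares 3 LIPUS-treated with 3 untreated Control cultures. The LIPUS group received pulsed ultrasound of 1.5 MHz at 30 mW/cm2 for 20 min and was then kept in the incubator for 30 min before RNA was extracted. The Control group was not stimulated, and treated and untreated cells were held in one culture plate. Both groups are the same line grown in alpha-MEM with fetal bovine serum, so differences between donors or animals are not sampled. For each gene the table holds 1 FPKM (fragments per kilobase of exon, scaled to the mapped fragments of the library) per group, pooled over its 3 libraries. There is therefore no value of a single culture, no SD and no test here. The table holds no read counts, so the fragments behind a value are not given, and whether the cultures overlap in a gene cannot be read from it. The study describes a Control culture that stood apart from the rest of its group, which the pooled Control values include, so no value could be given without it. The study proposes that ultrasound may have leaked into control cells of the shared plate, which was not tested here.

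Ligands of this superfamily are made as precursors, cleaved by furin-like proteases and secreted, mostly as dimers. They bind pairs of type I and type II receptor kinases, and the activated receptors phosphorylate Smad proteins, Smad2 and Smad3 for TGF-beta and activin and Smad1, Smad5 and Smad9 for most bone morphogenetic proteins (BMPs). In bone, TGF-beta is stored in the matrix in a latent form, and BMPs are known for inducing bone and cartilage. Bmp1 bears the family's name but does not encode such a ligand: its product is a secreted metalloprotease that trims procollagens and other matrix proteins, so 9 of the members are ligand genes. The identity of the cells rests on few of their markers. Of 8 osteocyte markers, 4 (Pdpn, Gja1, Cd44 and Dmp1) had an FPKM of at least 1 in both groups, while Sost, Mepe and Fgf23 were listed at 0. Dmp1 was at 3.04 FPKM in Control and 7.65 FPKM in LIPUS cells and Pdpn at 295 and 402 FPKM. Cd44 was at 200 FPKM in Control and 212 FPKM in LIPUS cells, and Gja1 at 176 and 170 FPKM. Of 7 markers of the osteoblast lineage, 5 were at 1 FPKM or more in both groups, and all 5 were lower in LIPUS cells. Over all genes with a mean of at least 1 FPKM, 49.8% were higher with LIPUS and 8.08% were at least 1.5-fold lower. Alpl was at 293 FPKM in Control and 190 FPKM in LIPUS cells, Runx2 at 24.4 and 14.8 FPKM and Sp7 at 5.86 and 3.75 FPKM, each more than 1.5-fold lower, while Bglap was listed at 0 in Control cells and had 1.58 FPKM in LIPUS cells. Markers of macrophages and osteoclasts, of endothelium and of muscle each summed to at most 7.77 FPKM in either group, with Ptprc, Adgre1, Cdh5, Myod1 and Myog listed at 0, and the summed adipocyte markers, at 52.9 FPKM in Control and 30.5 FPKM in LIPUS cells, came almost wholly from Fabp4.

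The regions upstream of 3 genes are shown because Inhba and Tgfb1 gave the most ligand RNA and Bmp4 the largest ratio between groups among members with a mean of at least 1 FPKM. RefSeq promoter windows (GRCm38.p6) were found for 7 of the 10 members. The 250 bases before the start site are printed 5′ to 3′ on the strand of the gene, from chr13:16011601-16011850 (plus strand) for Inhba, chr7:25686752-25687001 (plus strand) for Tgfb1 and chr14:46390670-46390919 (minus strand) for Bmp4. Capitals mark matches on either strand to the letters GGGCGG of the GC box, GTGGGCG of the Egr core site, TGANTCA of the AP-1 site, CAGAC of the Smad box or TATAAA of the TATA box.
Inhba: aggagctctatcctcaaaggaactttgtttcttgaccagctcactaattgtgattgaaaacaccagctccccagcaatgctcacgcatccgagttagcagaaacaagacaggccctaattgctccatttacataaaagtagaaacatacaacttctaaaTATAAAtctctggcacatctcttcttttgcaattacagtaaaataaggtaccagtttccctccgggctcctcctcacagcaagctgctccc
Tgfb1: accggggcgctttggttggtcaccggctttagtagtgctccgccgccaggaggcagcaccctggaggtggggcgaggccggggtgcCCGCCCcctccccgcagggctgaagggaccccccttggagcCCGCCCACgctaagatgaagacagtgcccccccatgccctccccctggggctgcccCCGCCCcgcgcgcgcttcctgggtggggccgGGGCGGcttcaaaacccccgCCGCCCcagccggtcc
Bmp4: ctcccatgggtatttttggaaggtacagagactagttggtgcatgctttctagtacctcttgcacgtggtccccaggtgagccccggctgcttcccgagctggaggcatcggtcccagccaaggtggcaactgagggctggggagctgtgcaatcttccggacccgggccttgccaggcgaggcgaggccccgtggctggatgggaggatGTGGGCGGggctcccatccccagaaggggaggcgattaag

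These windows differ in composition. The Inhba window has a GC content of 43.2%, below the median of 52.4% over all 32851 windows, and holds 1 TATAAA and none of the other motifs. The Tgfb1 window has a GC content of 75.2%, with 5 GC boxes and 1 Egr core, which overlaps a GC box. In the Bmp4 window, 63.2% of the bases are G or C, and its single Egr core and single GC box overlap. Over all windows, 12.4% hold TATAAA, 32.7% hold GGGCGG, 7.02% hold GTGGGCG, 6.75% hold TGANTCA and 42.2% hold CAGAC. The Tgfb2 window holds a TATAAA too, together with 2 Smad boxes. A match is a string of letters and not a measured binding site.

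The members spanned a wide range of levels, from among the most abundant genes to genes listed at 0. Inhba, which encodes the beta A subunit of activin A, was by far the most abundant, with 711 FPKM in Control and 852 FPKM in LIPUS cells. Only 120 genes of the table had a higher FPKM in Control cells, and 97 in LIPUS cells. Bmp1 followed in Control cells with 83.0 FPKM and Tgfb1 with 80.9 FPKM, and in LIPUS cells the order of this pair was the reverse, with 68.3 FPKM for Bmp1 and 92.0 FPKM for Tgfb1. Gdf15, a stress-induced cytokine and distant relative of the family, was at 17.3 FPKM in Control and 18.1 FPKM in LIPUS cells. Tgfb3, Tgfb2 and Bmp4 stood lower, between 2.28 and 6.67 FPKM in the groups. Inhbb, the beta B subunit gene of activin B, had 0.187 FPKM in Control cells and was listed at 0 in LIPUS cells. Bmp2 and Bmp6, both ligands known for inducing bone, were listed at 0 in both groups. A total of 20 genes at 0 in one group had an FPKM of at least 10 in the other, so a 0 was not read as absence of the transcript.

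**Figure D1:**
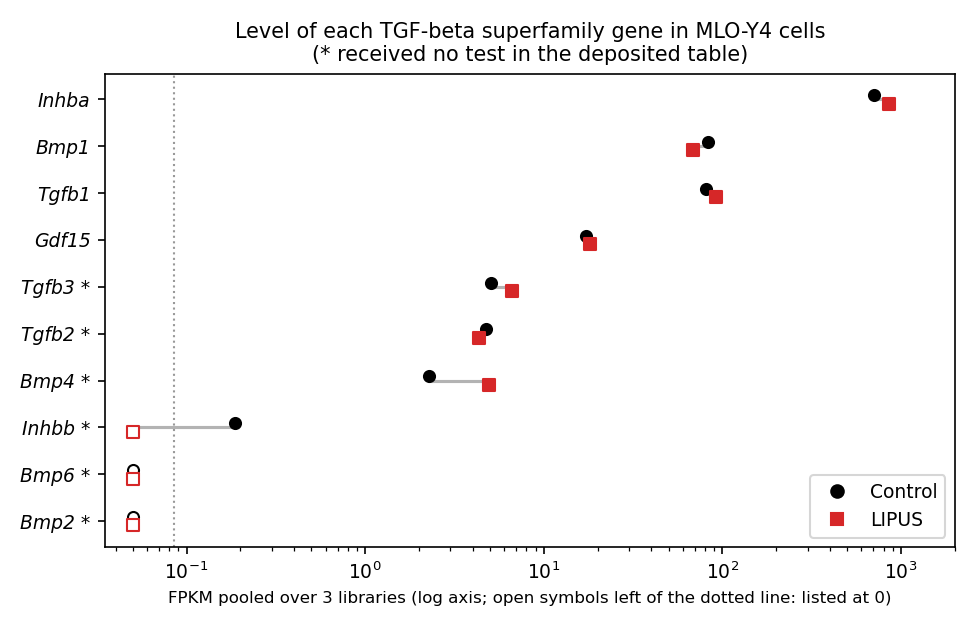
FPKM of the 10 members in Control (black circles) and LIPUS cells (red squares), 1 value per group pooled over 3 libraries, on a log axis; open symbols left of the dotted line are listed at 0, and an asterisk marks a gene that the deposited table did not test. Inhba stands alone at 711 and 852 FPKM, and Bmp4 has the widest gap among members above 1 FPKM.

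Since FPKM is scaled to gene length, the levels of the ligands can be set side by side. Inhba RNA made up 78.6% of the summed FPKM of the 10 genes in Control cells and 81.4% in LIPUS cells. Its level was 8.78 times that of Tgfb1 in Control and 9.26 times in LIPUS cells. Among the TGF-beta isoforms, Tgfb1 held 89.2% of the summed FPKM in Control and 89.3% in LIPUS cells. Tgfb1 was 15.9 times as high as Tgfb3 in Control and 13.8 times in LIPUS cells, and 17.1 and 21.2 times as high as Tgfb2. Inha, which encodes the alpha subunit that turns activin into inhibin, was at 0.195 FPKM in Control and 0.167 FPKM in LIPUS cells. The order Tgfb3, Tgfb2, Bmp4 in Control cells became Tgfb3, Bmp4, Tgfb2 in LIPUS cells. Whether such neighbours differ beyond the spread between cultures cannot be judged from pooled values.

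The next question was which ligand genes differed between LIPUS-treated and Control cells. Bmp4, a BMP that promotes bone formation, had the largest ratio among members with a mean of at least 1 FPKM, with 4.96 FPKM in LIPUS against 2.28 FPKM in Control cells, 2.18-fold higher. All other members past this filter lay within 1.5-fold of the Control value. Differences are given as the log2 ratio of LIPUS over Control after 0.1 FPKM was added to both values, which was 1.09 for Bmp4. For the 3 TGF-beta isoforms, the signals that bind Tgfbr2 and Tgfbr1, the log2 ratios were 0.19 (Tgfb1), -0.12 (Tgfb2) and 0.39 (Tgfb3). Tgfb2 was thus the isoform with the lower value in LIPUS cells, at 4.34 FPKM against 4.72 FPKM. Tgfb3 was 1.31 times as high with LIPUS, at 6.67 FPKM against 5.07 FPKM. Inhba was 1.20 times as high in LIPUS as in Control cells (log2 ratio 0.26), which in FPKM was a larger difference than the whole level of Tgfb1. Gdf15 was nearly level, with a log2 ratio of 0.06. Bmp1 had the lowest log2 ratio of the members past the filter, -0.28, with a Control value 1.22 times the LIPUS value.

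Counted over the members, 7 of 10 had a mean FPKM of at least 1, and the others were Bmp2, Bmp6 and Inhbb. Of these 7 genes, 5 were higher and 2 lower in LIPUS cells, with a median log2 ratio of 0.19 against -0.0018 over the 11536 genes of the table that passed the same filter. A difference of at least 1.5-fold was found for 1 member (14.3%), while 15.5% of all genes past the filter differed by as much, 7.46% of them higher and 8.08% lower with LIPUS. At 1.5-fold the share among the members is therefore close to that among all genes. With a fold of 2, 1 of the 7 members, Bmp4, was past it, against 5.61% of all genes. Low genes scatter more. Of the 3018 genes with a mean FPKM within 2-fold of that of Bmp4, 25.4% differed by at least 1.5-fold, and 12% were higher by as much. Of genes with a mean of at least 10 FPKM, 6.86% passed the same fold, and none of Inhba, Tgfb1, Bmp1 and Gdf15 did.

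Each member was also set beside genes of its own level. The central 90% of the genes with a mean FPKM from 1 to 5 had log2 ratios between -1.41 and 1.21, which includes Bmp4, above 93.8% of these genes, and Tgfb2. From 5 to 20 FPKM this range was -0.68 to 0.66, with Tgfb3 above 86.7% and Gdf15 above 59.6% of the genes. Between 20 and 100 FPKM it was -0.45 to 0.46, and Tgfb1 stood above 78.2% and Bmp1 above 12.4% of the genes. At 100 FPKM or more it was -0.28 to 0.49, and Inhba stood above 86.8%. All 7 members past the filter thus lay inside the central 90% of genes of like level. These ranges describe scatter between genes in pooled values and do not replace a spread between cultures.

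**Figure D2:**
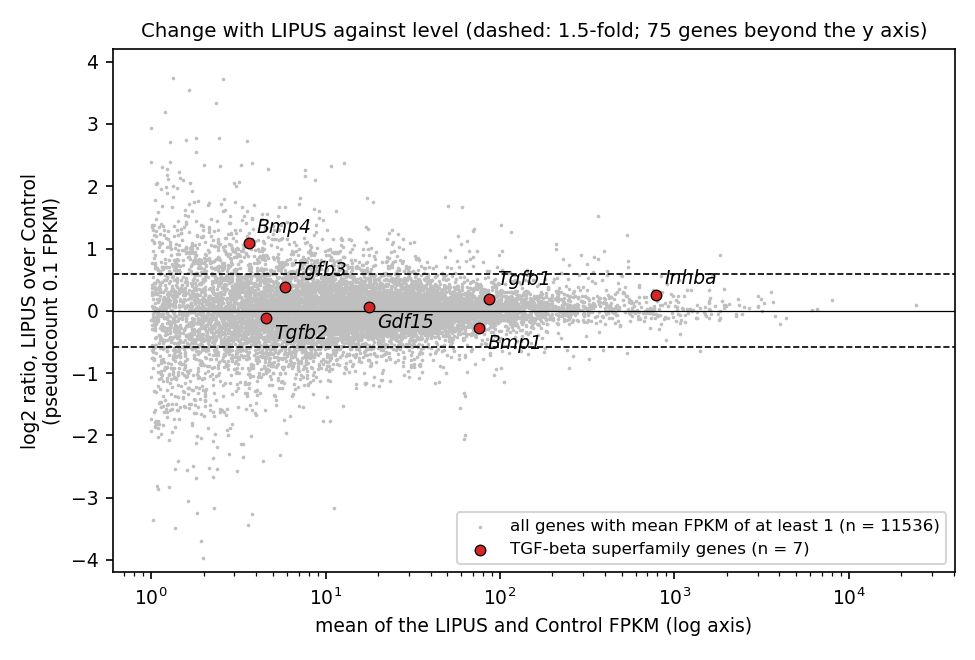
Log2 ratio of LIPUS over Control (pseudocount 0.1 FPKM) against the mean FPKM on a log axis for the 11536 genes with a mean of at least 1 FPKM (grey) and the 7 members among them (red); dashed lines mark 1.5-fold. Bmp4 lies above the upper line at 1.09, where the grey points are widely spread, and the other members lie between the lines.

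The status column of the deposited table separates the members in the same way as their level. Tgfb1, Bmp1, Inhba and Gdf15 had the status OK, meaning that the authors' program tested them, and the other 6 members had the status NOTEST. In all, 8145 of the 16476 genes above 0 in at least 1 group had the status OK, and each of these reached at least 6.70 FPKM in at least 1 group. Tgfb3, at 6.67 FPKM in LIPUS cells, stayed just under that level. Bmp4 thus has no test in the deposited table either.

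Most members share no exonic bases with a gene above 0 FPKM in either group. Inhba (ENSMUSG00000041324) lies on chromosome 13 of GRCm38 from 16011851 to 16031621 on the plus strand. Its antisense neighbour Gm48444, at 0.628 FPKM in Control and 1.61 FPKM in LIPUS cells, overlaps the gene but shares 0 exonic bases with it. Bmp4 (ENSMUSG00000021835) lies on chromosome 14 from 46383520 to 46390669 on the minus strand and shares 89 exonic bases with Gm15217, which was listed at 0 in both groups. Tgfb3 (ENSMUSG00000021253), on chromosome 12 from 86056745 to 86079041, overlaps Ttll5 on the opposite strand with 0 exonic bases in common. Tgfb3 shares 257 exonic bases with Gm48008, which had 0.960 FPKM in Control cells and was listed at 0 in LIPUS cells. It also shares 163 exonic bases with Gm37804, listed at 0 in both groups. Bmp6, on chromosome 13 from 38345107 to 38500302, shares 224 exonic bases with Txndc5, a gene at 201 FPKM in Control cells. Bmp6 was still listed at 0. Tgfb2, on chromosome 1 from 186622792 to 186705989, shares 124 exonic bases with Gm29491, listed at 0 in both groups. Tgfb1 (chromosome 7, 25687002 to 25705077), Bmp1 (chromosome 14, 70474558 to 70520234), Bmp2 (chromosome 2, 133552159 to 133562885), Inhbb (chromosome 1, 119415465 to 119422248) and Gdf15 (chromosome 8, 70629393 to 70632456) overlap no other gene of GENCODE M21. Libraries were stranded, but whether FPKM was computed by strand is not given in the sources used here.

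The partners of these ligands were then described, with a mean of at least 1 FPKM as the filter and 1.5-fold as the mark. Among 24 other ligand genes of the superfamily only 3 passed the filter, Gdf5, Gdf11 and Lefty1, an inhibitor of Nodal signalling, which was at 3.09 FPKM in Control and 7.77 FPKM in LIPUS cells. Of 12 receptors and co-receptors past the filter, 4 were higher and 8 lower (median -0.17). Eng, Acvr1 and Bmpr1a were the most abundant receptors, at 67.0, 48.3 and 25.1 FPKM in Control cells. Among the receptors that signal for activin A, Acvr2a was at 3.11 FPKM in Control and 2.65 FPKM in LIPUS cells, and Acvr1b was 1.86-fold lower, at 1.89 and 1.02 FPKM. Acvr1b was the only gene of this list past the mark, and with a pseudocount of 1 FPKM it was not. For TGF-beta, Tgfbr2 was at 9.69 FPKM in Control and 10.6 FPKM in LIPUS cells and Tgfbr1 at 5.00 and 6.95 FPKM. Gfral, the receptor of Gdf15, was listed at 0 in both groups.

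Of the proteins that hold TGF-beta latent, 3 had more RNA than Tgfb1 itself. Ltbp1 and Ltbp3, which tether latent TGF-beta to the matrix, and Lrrc32, which holds it on the cell surface, were at 167, 159 and 169 FPKM in Control cells, while Nrros was listed at 0. Of 11 such activation and processing genes past the filter, 8 were higher and 3 lower (median 0.20), and Ltbp4 was past 1.5-fold, at 2.81 FPKM in Control and 5.78 FPKM in LIPUS cells. Thbs1, which can activate latent TGF-beta, Itgb5 and Lrrc32 had the highest levels of the list in Control cells, with Thbs1 at 902 FPKM, and at 1065 FPKM in LIPUS cells. Of the 6 tolloid enhancers and substrates past the filter, which belong with Bmp1, 5 were lower (median -0.08), and the most abundant were Lox, Col1a1 and Pcolce, while Dmp1 was past 1.5-fold, at 3.04 FPKM in Control and 7.65 FPKM in LIPUS cells.

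Over all genes past the filter, 49.8% were higher with LIPUS and 15.5% were past 1.5-fold, and the counts of each list are read beside these shares. Of 13 genes past the filter that were listed as extracellular antagonists, 11 were higher and 2 lower (median 0.34). Among them 4 were at least 1.5-fold higher and 1 lower by as much, 38.5% in all. Whether each of these genes, Bmper and Bgn among them, acts as an inhibitor in these cells was not tested. Fst, whose product follistatin binds activin A, was at 44.2 FPKM in Control and 72.4 FPKM in LIPUS cells, so that the level of Inhba was 16.1 times that of Fst in Control and 11.8 times in LIPUS cells. Grem1, a BMP antagonist, was at 67.7 and 106 FPKM, and Bmper at 24.4 and 37.8 FPKM. Bgn, Htra1 and Fstl1 were the most abundant of the list in Control cells. Dcn, which encodes decorin, was 2.86-fold higher with LIPUS and Fmod, for fibromodulin, 1.56-fold lower. The genes downstream were divided by branch: of 8 genes reported here that are often used as readouts of TGF-beta and activin, 7 were higher with LIPUS (median 0.41) and Ctgf, Tagln and Acta2 were past 1.5-fold (37.5%), while all 7 BMP readouts past the filter, among them Id1, Id2 and Id3, were lower (median -0.48) and Smad6, Smad9 and Atoh8 were past 1.5-fold (42.9%). The other TGF-beta and activin readouts moved less. Pmepa1 was the lower one, with a log2 ratio of -0.14, and Tgfbi was at 0.05, Smad7 at 0.16, Skil at 0.39 and Tgif1 at 0.42. In Control cells Ctgf was at 1271 FPKM, Tgfbi at 426 FPKM and Pmepa1 at 242 FPKM. Over the 13 Smads and their regulators, 7 were higher and 6 lower (median 0.03), with Tgif1, Smad3 and Smad7 the most abundant, and the 2 past 1.5-fold (15.4%) were Smad6 and Smad9, both lower. This list shares Smad7, Skil and Tgif1 with the TGF-beta and activin readouts and Smad6 and Smad9 with the BMP readouts, so these counts are not separate. These lists were chosen with results of these data known, several of these genes also respond to other signals, and whether any ligand accounts for them was not tested. The osteoblast-lineage genes Alpl, Runx2 and Sp7 were lower alongside the BMP readouts, and their part in these values was not tested.

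**Figure D3:**
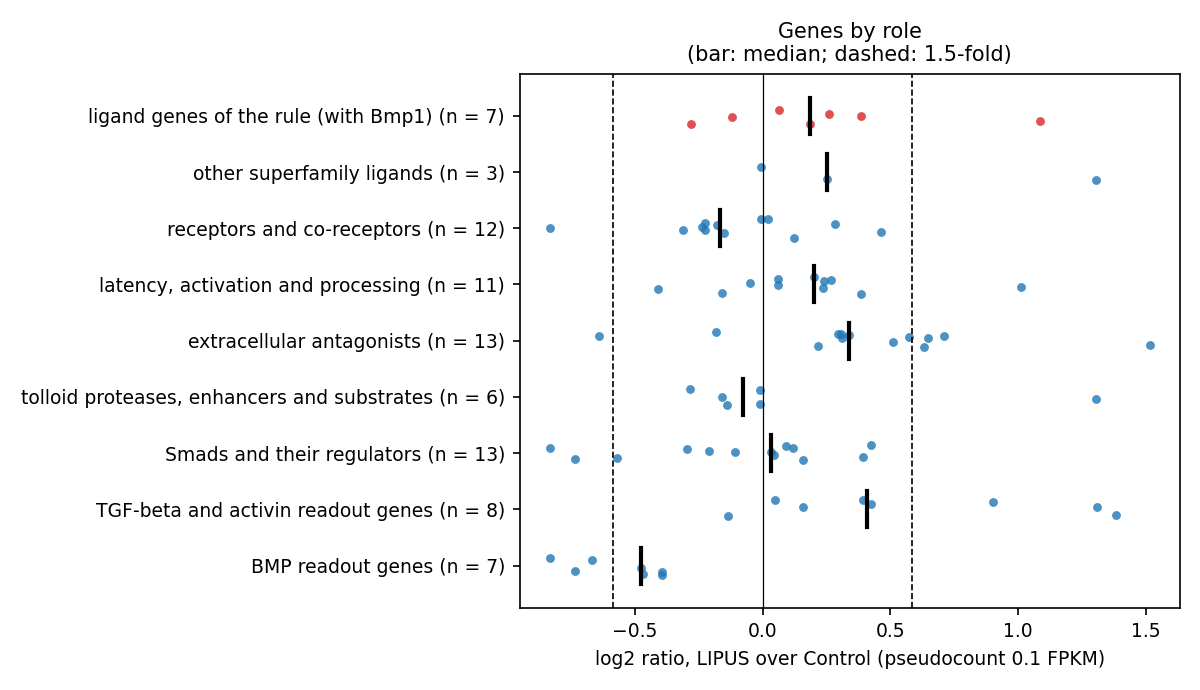
Log2 ratio of LIPUS over Control (pseudocount 0.1 FPKM) for genes with a mean of at least 1 FPKM, 1 point per gene, by role; black bars are medians and dashed lines mark 1.5-fold. The median is 0.19 over the members (red) and -0.48 over the BMP readout genes, whose 7 points all lie below 0.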

How the data were processed

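RNA from 3 LIPUS-treated and 3 Control cultures of MLO-Y4 cells was sequenced as stranded, paired-end mRNA libraries. For trimming the authors used Trimmomatic 0.36, and for alignment to GRCm38 they ran TopHat 2.1.0 (bowtie 2.2.6.0). Cufflinks gave the FPKM on Ensembl transcripts, in version 2.2.1 according to the methods and 2.1.1 according to the submitters' processing notes. The authors deposited 1 FPKM per gene and group, pooled over libraries. The deposited fold changes, test statistics, p-values and q-values are the authors' own comparison and were not used.

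Log2 ratios were LIPUS over Control with a pseudocount of 0.1 FPKM, which understates the change of low genes. Folds printed for single genes are ratios of the FPKM without a pseudocount. Genes with a mean of at least 1 FPKM were counted, and a difference was marked at 1.5-fold on the log2 ratio with this pseudocount of 0.1 FPKM. No test was run, since each group has 1 pooled value. All members were named, and from each pathway list the genes past 1.5-fold and the 3 highest in Control cells. The members and lists were chosen with earlier results of these data known, and 1 gene first placed on the list of TGF-beta and activin readouts is not reported here, for a reason unrelated to its values. Alternatives were other pseudocounts, filters, folds and scalings, and leaving out Bmp1. The marking of folds was checked on simulated data with far less scatter than low genes show here. That check covers the calculation and not the precision of the values. Positions and exonic bases are from GENCODE M21 (GRCm38), matched by Ensembl identifier. Python 3.11.15, numpy 2.4.6, pandas 2.3.3 and matplotlib 3.10.9 were used.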

Additional observations from a re-analysis of the deposited data

How the results depend on the processing

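No paired analysis was possible because the table holds 1 pooled FPKM per group, and for the same reason no replicate could be left out. The log2 ratios of the 7 members were recomputed with a pseudocount of 1 FPKM, without a pseudocount, centred on the median of all genes and with both groups rescaled to the same sum. None of these 28 values had another sign or another side of 1.5-fold, and Bmp4 ranged from 0.86 to 1.12. The members' median ranged from 0.12 (no filter on level) to 0.22 (without Bmp1). The number of members past 1.5-fold, 1 as reported, was 2 with no filter on level, which adds Inhbb, 0 with a mean of at least 5 FPKM, which leaves out Bmp4, and 2 with the lower fold, which adds Tgfb3. The lower fold marks a log2 ratio of 0.32 or more in size. Among all genes, 32.1%, 9.21% and 34.5% were past the fold under these settings. With a fold of 2, 1 member, Bmp4, was past it, against 5.61% of all genes past the filter. With a mean of at least 5 FPKM, the median of the other ligands was 0.65 over fewer genes, 0 receptors and 0 activation and processing genes were past 1.5-fold, and with a pseudocount of 1 FPKM 0 receptors were. For low members such as Bmp4 and Inhbb the precision is unknown, because neither read counts nor single libraries can be seen behind an FPKM.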
